A study of Homo sapiens with 6 samples.

Results

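The sensors of the unfolded protein response examined here were 9 genes chosen by name: ERN1, XBP1, ATF6, ATF6B, MBTPS1, MBTPS2, CREB3, CREB3L2 and CREB3L4. They are 9 of the 46427 genes listed per library, and all 9 were among the 11856 genes that entered the test, those averaging 1 FPKM or more over the 6 libraries (FPKM counts fragments relative to transcript length and library size). RNA came from K562, a human erythroleukemia cell line grown from a chronic myeloid leukemia, labelled wild type. The vehicle group was 3 libraries of cells given 0.1% DMSO, and the HR-19011 group was 3 libraries of cells given 10 µM of the compound HR-19011, both for 24 h; how much DMSO the HR-19011 cells received is not stated. The series title ties the compound to the integrated stress response through HRI, eIF2α and ATF4. The comparison here asks how transcripts of the IRE1α and ATF6 branches of endoplasmic reticulum stress, and of related factors, differed between the groups. Whether the 3 libraries of a group were separate cultures is not stated in the labels; the p-values therefore describe the spread between these samples alone, and that spread may be technical.

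The unfolded protein response adjusts the folding capacity of the endoplasmic reticulum to its load. IRE1α, the product of ERN1, is a transmembrane kinase and ribonuclease that cuts a short intron out of XBP1 mRNA in the cytoplasm, and the rejoined mRNA encodes the active XBP1 transcription factor. ATF6 and its relative ATF6B are transmembrane factors that move to the Golgi under stress, where the site-1 protease (MBTPS1) and then the site-2 protease (MBTPS2) release their transcription factor domains. CREB3, CREB3L2 and CREB3L4 belong to the same class of membrane-bound bZIP factors and are released by the same proteases. The splicing of XBP1 and the transport and cleavage of the membrane-bound factors are steps that these transcript levels do not record.

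The XBP1 intron is shown first because it is the sequence on which IRE1α acts and because it limits what the XBP1 values can tell. The 66 bases below are the minus strand of GRCh38 at chr22:28796104-28796169, from the GENCODE v29 transcript, with the 26 intron bases in capitals.
XBP1 intron: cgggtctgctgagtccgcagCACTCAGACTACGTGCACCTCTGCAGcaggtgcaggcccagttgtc
The intron lies in coding sequence in exon 4 of 5 of the longer transcript, at chr22:28796124-28796149. Its length leaves a remainder of 2 when divided by 3, so its removal shifts the reading frame. Comparing the longer and shorter annotated transcripts leaves 7 equivalent placements of the removed bases, and the one shown has the CNGCNG pattern of the IRE1 cleavage loops before both ends, within CCGCAGC and CTGCAGC. The deposited XBP1 row merges the transcripts NM_005080 and NM_001079539, which are annotated with and without this intron and differ in length by further bases, so the spliced share cannot be read from these values.

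Promoter windows from RefSeq (GRCh38.p14), 250 bases before to 50 after each start, were searched on both strands for 5 motifs, chosen after the files were seen. The ER stress response element (ERSE, CCAAT then any 9 bases then CCACG), a known site of ATF6 together with NF-Y, was found in 1 of the 9 genes, XBP1, and in 0.0916% of all 27305 genes with a window. The cyclic AMP response element (CRE, TGACGTCA), a palindrome bound by many bZIP factors, was found in 1 of the 9, CREB3L2, and in 2.25% of all genes. The pair is shown with the match in capitals, at chr22:28800570-28800661 and at chr7:138002228-138002295, both on the minus strand.
XBP1 promoter: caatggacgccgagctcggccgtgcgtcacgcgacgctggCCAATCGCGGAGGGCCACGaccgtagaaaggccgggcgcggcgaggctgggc
CREB3L2 promoter: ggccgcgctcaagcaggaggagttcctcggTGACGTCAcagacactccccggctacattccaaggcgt
The XBP1 match lies 52 to 34 bases before the start and the CREB3L2 match 179 to 172 bases before it. Another window of CREB3L2 held the letters TGATGNAA (a pattern of C/EBP and ATF composite sites, in 4.46% of all genes) 16 to 23 bases after the start. ERSE-II (ATTGG, any base, CCACG; 0.0696% of all genes) and TGACGTGG (in unfolded protein response elements, 0.927%) were in none of the members' windows. A match describes the letters only.

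Summed FPKM ranged from 456639 to 467595 in vehicle and from 420661 to 427819 in HR-19011 libraries, and the files give no read counts, so the depth behind each value is unknown. Of the 11 erythroleukemia markers, 10 passed the filter, and their summed level over all 11 was 8783 to 8952 FPKM in vehicle and 3615 to 3804 in HR-19011. In this list 8 of 10 fell, against 38.0% of all tested genes; those with the smallest p were the erythroid factor gene NFE2 (5.59-fold lower) and the near-identical gamma globin genes HBG1 (2.55-fold) and HBG2 (2.33-fold), between which reads are uncertain, while the zeta globin gene HBZ (3.50-fold) and the factor gene LMO2 (3.25-fold), named after their values were seen, fell more than the gamma globins. TAL1 (31.3 to 32.0 FPKM) and ABL1 (53.5 to 51.4 FPKM) did not pass the test, and KIT was below the filter. The direction of TAL1 and ABL1 depended on library scaling. Both were called lower after TMM scaling, in which all 10 tested markers were lower, and higher after quantile normalization. TAL1 was also called higher as TPM. Of 6 lymphoid markers, 1 passed the filter, CD3D, which rose from 7.40 ± 1.54 to 11.9 ± 0.263 FPKM (SD, n = 3), MS4A1 was listed at 0 in all 6 libraries, and the list's sum was 6.72 to 9.58 FPKM in vehicle and 13.0 to 13.4 in HR-19011. The part of these marker shifts in the results below was not tested; in bulk RNA, fewer cells of a type and less RNA per cell cannot be told apart.

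All 9 genes were higher in HR-19011 in the limma test (Benjamini-Hochberg adjusted p under 0.05), against a background in which 84.4% of the tested genes were called in either direction, 46.4% higher and 38.0% lower. In all 9, every HR-19011 value lay above every vehicle value, as it did for 46.9% of tested genes. A log2 fold change of at least 1 with the call was reached by 5 of the 9 and by 12.0% of tested genes; of the 9, only ERN1 and CREB3L4 reached it after TMM scaling, and only ERN1 and XBP1 with a pseudocount of 5. The median log2 fold change was 1.17 over the 9 and 0.07 over all tested genes. Log2 fold changes are of FPKM + 1, which understates the change of low genes, and folds are ratios of group means.

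ERN1 (chr17:64039142-64130144, minus strand) had the largest log2 fold change of the 9. It measured 1.82, 2.02 and 1.84 FPKM in the vehicle libraries and 10.8, 11.3 and 11.8 FPKM in the HR-19011 libraries. The lowest treated library thus stood far above the highest vehicle library, and the sensor gene went from the lowest level of the 9 to the third lowest. The means of 1.89 ± 0.108 and 11.3 ± 0.517 FPKM (SD, n = 3) gave a 5.97-fold rise, with a log2 fold change of 2.09 (SE 0.0512, 95% interval 1.97 to 2.21, limma adjusted p = 1.37e-09). A larger log2 fold change was found in 2.30% of tested genes. The value depended on the pseudocount, at 2.52 with 0.1 and 1.2 with 5 in place of 1.

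XBP1 (chr22:28794560-28800569, minus strand), whose RNA is the substrate of IRE1α, was the most abundant of the 9 in both groups. Vehicle libraries held 36.3, 36.1 and 37.4 FPKM and HR-19011 libraries 85.9, 86.2 and 86.2 FPKM. The treated libraries lay within a narrow band, and the groups were separated by more than the whole vehicle level. The rise was 2.35-fold, from 36.6 ± 0.712 to 86.1 ± 0.164 FPKM (SD, n = 3), with a log2 fold change of 1.21 (SE 0.0267, interval 1.15 to 1.27, limma adjusted p = 7.65e-10). XBP1 stood at the 83.7th percentile of tested genes by level in vehicle and at the 94.4th in HR-19011. The value sums the unspliced and spliced forms.

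**Figure D1:**
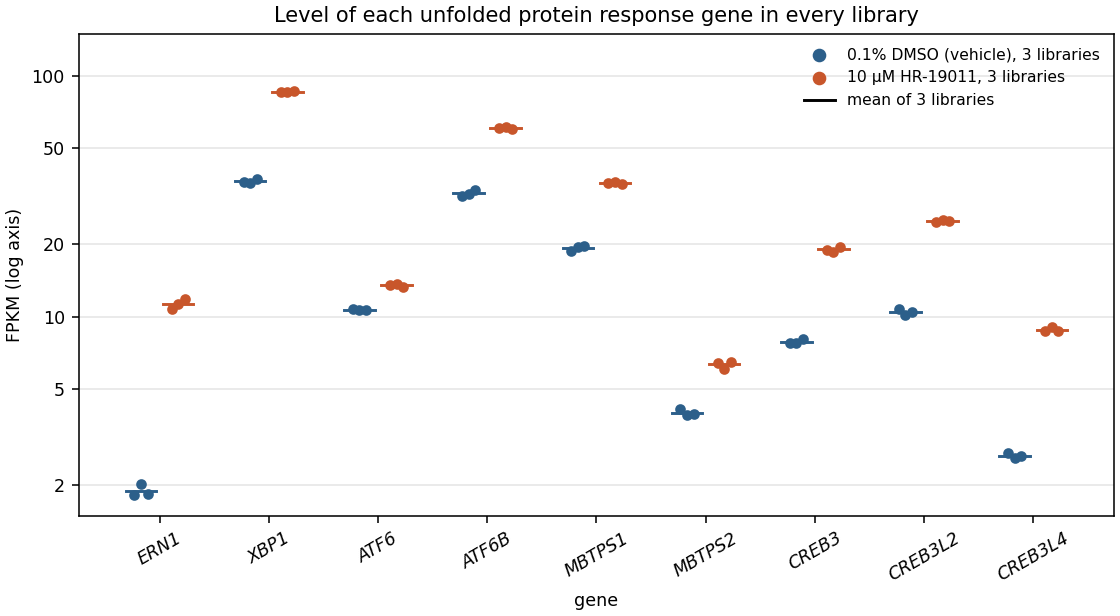
FPKM of the 9 genes in each library (points) with group means (short lines), for vehicle and HR-19011, 3 libraries each; the level axis is logarithmic. In each gene the 3 HR-19011 points lie above the 3 vehicle points, with the widest gap in ERN1 (1.89 to 11.3 FPKM) and the narrowest in ATF6 (10.7 to 13.6 FPKM).

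ATF6 (chr1:161766320-161964070, plus strand), the best known of the cleaved factors, changed least. Its values were 10.8, 10.7 and 10.7 FPKM in vehicle and 13.6, 13.7 and 13.3 FPKM in HR-19011. The groups did not overlap, but the gap was small. ATF6 rose 1.26-fold, from 10.7 ± 0.0536 to 13.6 ± 0.203 FPKM (SD, n = 3), and its log2 fold change was 0.31 (SE 0.0335, interval 0.235 to 0.388, limma adjusted p = 2.10e-05). A larger log2 fold change was found in 36.1% of tested genes. After TMM scaling (a trimmed mean of log ratios), which moved the median of all genes by -0.22, ATF6 was no longer called (log2 fold change 0.07, limma adjusted p = 0.061), and it was not called against a 1.5-fold change.

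ATF6B (chr6:32115264-32128246, minus strand), which encodes a relative of ATF6 described as a weaker activator, measured 31.8, 32.5 and 33.8 FPKM in vehicle and 60.9, 61.1 and 60.5 FPKM in HR-19011. Its treated libraries agreed within 1 FPKM of each other and lay well above the vehicle range. The rise was 1.86-fold (log2 fold change 0.88, SE 0.0307, limma adjusted p = 1.09e-08). ATF6B was thus the more abundant of the pair in every library. The ATF6 to ATF6B ratio of FPKM fell from 0.329 ± 0.0116 to 0.223 ± 0.00205 (SD, n = 3) with no overlap between groups. The exact two-sided permutation test, run here and below on log2 ratios of FPKM + 1, gave p = 0.1 (0.1125 after adjustment over 9 ratios). A p of 0.1 is the smallest it can give with 3 against 3.

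The protease genes rose as well. MBTPS1 (chr16:84053763-84116942, minus strand), encoding the site-1 protease that makes the first, lumenal cut, measured 18.9, 19.5 and 19.8 FPKM in vehicle and 36.1, 36.2 and 35.5 FPKM in HR-19011. That was a 1.85-fold rise (log2 fold change 0.86, SE 0.0311, limma adjusted p = 1.38e-08), close in size to that of ATF6B. MBTPS2 (chrX:21839617-21885423, plus strand), encoding the metalloprotease that makes the second cut inside the membrane, measured 4.15, 3.92 and 3.97 FPKM in vehicle and 6.47, 6.07 and 6.51 FPKM in HR-19011. Its groups did not overlap either, and the rise was 1.58-fold (log2 fold change 0.55, SE 0.0461, limma adjusted p = 3.47e-06). The log2 fold change of MBTPS2 was 0.34 after TMM scaling, 0.33 after quantile normalization and 0.33 with a pseudocount of 5, and it was not called against a 1.5-fold change. In every library the site-1 protease transcript was the more abundant, with an MBTPS1 to MBTPS2 ratio of 4.84 ± 0.252 in vehicle and 5.66 ± 0.258 in HR-19011 (SD, n = 3, exact permutation p = 0.1). YY2, a gene whose span overlaps MBTPS2 by 2754 bases, was listed at 1.09 and 1.17 FPKM and was not called.

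Among the related membrane-bound factors, CREB3L4 changed most. CREB3L4 (chr1:153967487-153974359, plus strand), known for expression in prostate and other secretory tissues, measured 2.74, 2.60 and 2.64 FPKM in vehicle and 8.77, 9.06 and 8.77 FPKM in HR-19011. The treated values were all more than 3 times the vehicle mean, a 3.33-fold rise (log2 fold change 1.43, SE 0.0424, limma adjusted p = 4.12e-09), which became 0.86 on the log2 scale with a pseudocount of 5. Its span overlaps SLC39A1 by 698 bases and JTB by 91 bases on the opposite strand; both of these fell, from 39.4 to 35.5 and from 99.3 to 90.6 FPKM. The libraries were stranded, but the sources used here do not say whether the counting used strand.

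CREB3 (chr9:35732666-35736999, plus strand), also called LZIP or Luman, measured 7.77, 7.82 and 8.12 FPKM in vehicle and 19.0, 18.6 and 19.6 FPKM in HR-19011. CREB3L2 (chr7:137874979-138002086, minus strand), a regulator of secretory capacity in cartilage, measured 10.7, 10.2 and 10.5 FPKM in vehicle and 24.7, 25.3 and 24.9 FPKM in HR-19011. Both genes rose by a similar amount with no overlap, 2.41-fold for CREB3 (log2 fold change 1.17, SE 0.0373, limma adjusted p = 6.16e-09) and 2.38-fold for CREB3L2 (1.18, SE 0.0345, adjusted p = 3.84e-09). The ratio of CREB3L2 to CREB3 was 1.33 ± 0.0489 in vehicle and 1.31 ± 0.0437 in HR-19011 (SD, n = 3), with overlapping groups. The tested log2 ratios of FPKM + 1 had means of 0.365 in vehicle and 0.372 in HR-19011, with an exact permutation p = 0.9. CREB3 overlaps GBA2 on the opposite strand by 134 bases, and GBA2 rose from 14.1 to 16.6 FPKM. The antisense gene CREB3L2-AS1 was listed at 0 in both groups.

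**Figure D2:**
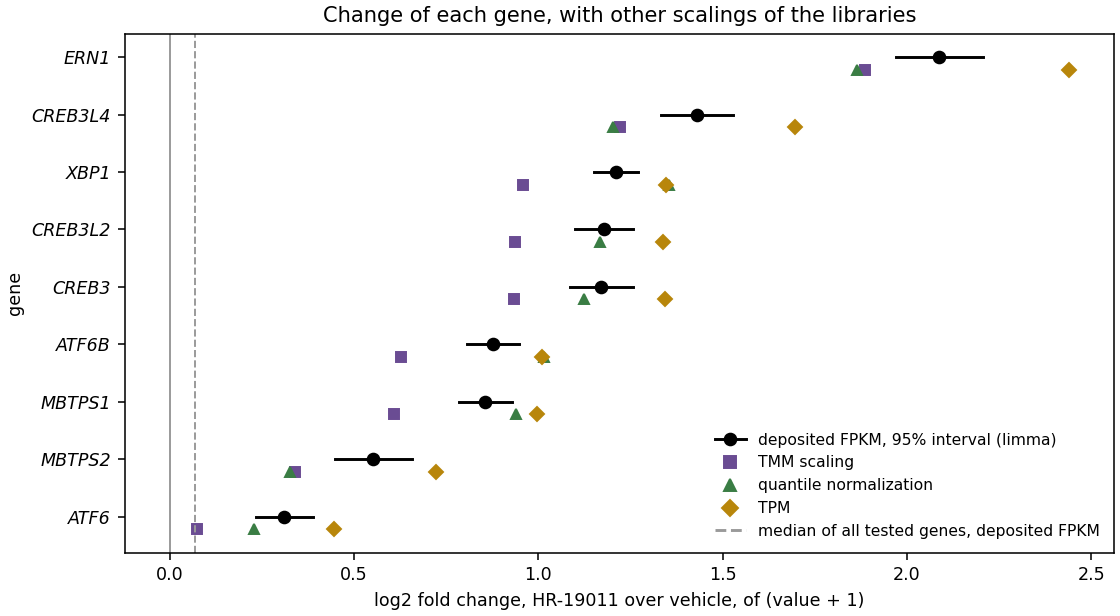
Log2 fold change of each of the 9 genes, HR-19011 over vehicle on log2(FPKM + 1), with its 95% interval, and the values under other scalings of the libraries. On the deposited FPKM the values run from 0.31 for ATF6 to 2.09 for ERN1; with the other scalings shown they run from 0.07 (ATF6, TMM) to 2.44 (ERN1, TPM), all above 0.

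The order of levels differed between the groups. In vehicle it ran from XBP1 through ATF6B, MBTPS1, ATF6, CREB3L2, CREB3, MBTPS2 and CREB3L4 to ERN1, and only the neighbours ATF6 and CREB3L2 had overlapping ranges. In HR-19011 it ran XBP1, ATF6B, MBTPS1, CREB3L2, CREB3, ATF6, ERN1, CREB3L4 and MBTPS2, with no overlap between neighbours. ATF6 thus went from the fourth place to the sixth, ERN1 from the ninth to the seventh, and the top 3 kept their places.

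A ratio of FPKM inside a library is not changed by a scaling factor applied to that library, but quantile normalization does change it. Log2 changes in this paragraph are of ratios with a pseudocount (FPKM + 1 unless stated), not of the printed ratios. Scaling factors can therefore change them. The ratio of ERN1 to ATF6 moved furthest, with 0.169, 0.188 and 0.173 in the vehicle libraries and 0.793, 0.822 and 0.888 in the HR-19011 libraries. XBP1 gained on ATF6, from a ratio of 3.41 ± 0.0779 to 6.35 ± 0.101 (SD, n = 3). ERN1 in turn gained on XBP1, whose ratio to ERN1 went from 19.4 ± 1.30 to 7.62 ± 0.334. CREB3L4 gained on its relatives, with CREB3L2 to CREB3L4 going from 3.94 ± 0.0397 to 2.81 ± 0.0262 and CREB3 to CREB3L4 from 2.97 ± 0.122 to 2.15 ± 0.0903; with a pseudocount of 5 the log2 ratios of both pairs moved the other way, and after quantile normalization they moved by -0.04 and -0.08 in place of -0.25 and -0.26. The log2 change of XBP1 to ERN1, of FPKM + 1, was -0.88. It was -0.51 after quantile normalization, -0.93 after TMM scaling and -1.09 as TPM. With a pseudocount of 0.1 it was -1.29, and with 5 it was -0.11. That of MBTPS1 to MBTPS2 was 0.30, against 0.61 after quantile normalization and 0.27 both after TMM scaling and as TPM. In 8 of the 9 pairs computed the groups did not overlap and the exact permutation p was 0.1 (0.1125 adjusted over the 9), so none could pass 0.05 in this design.

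**Figure D3:**
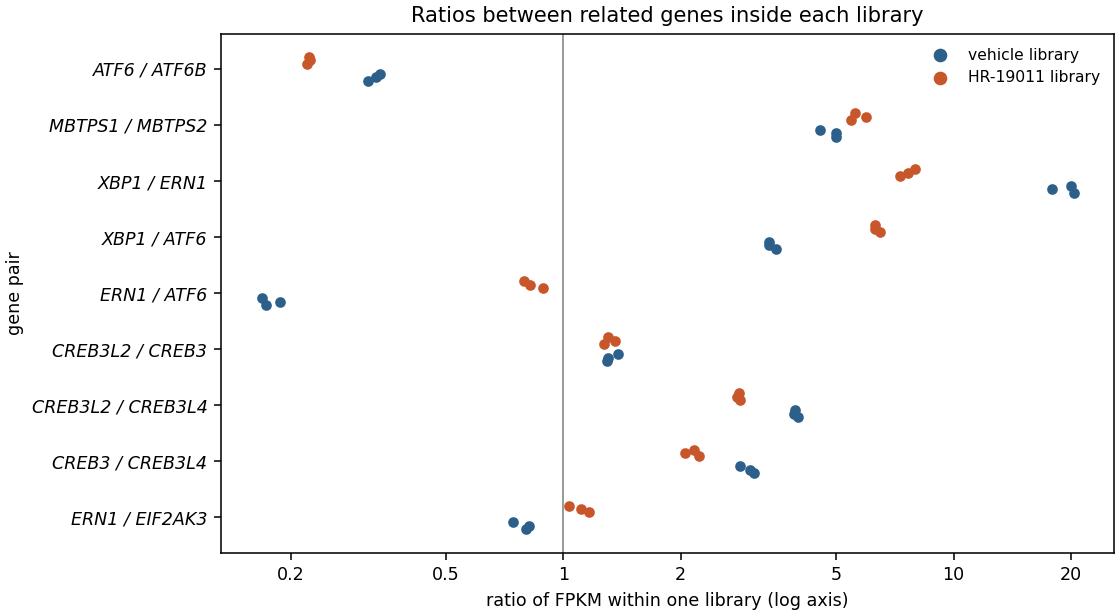
Ratio of FPKM within a library for 9 pairs of genes, on a log axis, 1 point per library, vehicle and HR-19011, with a grey line at 1. Groups are apart in 8 pairs and overlap for CREB3L2 to CREB3 (means of 1.33 and 1.31).

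EIF2AK3, which encodes PERK, the sensor of the remaining branch and an eIF2α kinase, rose 4.27-fold, from 2.41 ± 0.0920 to 10.3 ± 0.158 FPKM (SD, n = 3, log2 fold change 1.73). The ratio of ERN1 to EIF2AK3 was 0.788 ± 0.0397 in vehicle and 1.10 ± 0.0641 in HR-19011 (exact permutation p = 0.1), so that IRE1α transcripts were the scarcer of the pair in vehicle and the more abundant in HR-19011. CREB3L1, encoding a further membrane-bound factor known as OASIS, rose 2.32-fold, from 5.70 ± 0.261 to 13.2 ± 0.435 FPKM. CREBZF, a bZIP factor without a membrane anchor, measured 11.2 ± 0.776 and 13.7 ± 0.427 FPKM (log2 fold change 0.27, limma adjusted p = 0.000989), and was not called once TMM factors were applied (adjusted p = 0.578). ERN2, the epithelial IRE1 paralogue, was listed at 0 in all 6 libraries. CREB3L3, a liver and gut factor, was below the filter at 0.0127 and 0.0139 FPKM.

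Of 14 partners of IRE1α and ligation factors, 6 rose, 6 fell and 2 did not pass the test, shares near the 46.4% higher and 38.0% lower among all tested genes, with a median log2 fold change of 0.01 against 0.07 for all tested genes (-0.22 after TMM scaling and -0.06 after quantile normalization). DNAJB9, a lumenal co-chaperone that represses IRE1α, rose 5.55-fold, from 3.21 to 17.8 FPKM, and TMBIM6, an IRE1α inhibitor also called BI-1, rose 2.36-fold. DNAJB9, PDIA6 and SEC61A1, all called higher, are also in the list of XBP1 targets below, and PDIA6 is in that of ATF6 targets. DDX1, a helicase of the tRNA ligase complex, fell 1.83-fold, from 125 to 68.2 FPKM. RTCB, the ligase that joins the cut XBP1 ends, fell from 48.0 to 41.5 FPKM, a call lost under quantile normalization (limma adjusted p = 0.187), and the complex subunit FAM98B fell from 14.4 to 11.2 FPKM; both were named after their values were seen. The complex members ZBTB8OS (10.3 to 10.0 FPKM) and RTRAF (9.07 to 9.46 FPKM) did not pass the test, but both were called lower after TMM scaling, which brought the genes lower in this list from 6 to 8. ZBTB8OS was also called lower after quantile normalization, and RTRAF was called higher as TPM.

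Around ATF6, the genes that hold or reduce it in the endoplasmic reticulum rose in 5 of the 5 tested (median log2 fold change 0.83), against 46.4% of all tested genes, and THBS4 was listed at 0. HSPA5, encoding the chaperone BiP that binds the sensor domains of IRE1α, PERK and ATF6, rose 4.87-fold, from 139 to 679 FPKM. TXNDC12 rose 2.41-fold and CALR, encoding calreticulin, 1.64-fold. HSPA5 and CALR are also in the list of ATF6 targets below, so these 2 lists are not separate observations. Of 12 genes of the COPII coat, which carries ATF6 to the Golgi, 10 rose and 2 did not pass the test (median 0.60), against 46.4% higher among all tested genes, and 8 were called higher after TMM scaling. SEC23B, SEC24D and SEC31A of this list are also in the list of XBP1 targets. The coat subunit SEC24D rose 11.4-fold, SEC23A 3.69-fold, from 4.97 to 18.3 FPKM, and SEC23B 2.08-fold. SAR1B (6.69 to 7.14 FPKM) and SEC24B (11.5 to 10.8 FPKM) did not pass the test, and both were called lower after TMM scaling. The direction of SAR1B depended on library scaling, as it was called higher as TPM. That brought the genes higher in this list from 10 to 11. SEC24B was also called lower without vehicle replicate 2, which brought the genes lower in this list from 0 to 1.

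The site proteases also release the SREBP factors. Of 7 cofactors and other substrates, 4 rose and 3 fell, shares near those of all tested genes (46.4% and 38.0%), with a median log2 fold change of 0.22 (-0.01 after TMM scaling). INSIG1, which retains SREBPs in the endoplasmic reticulum and is itself an SREBP target, fell 2.45-fold, from 50.8 to 20.7 FPKM. SREBF1 fell 1.97-fold, from 33.0 to 16.7 FPKM, whereas SREBF2 rose 1.59-fold, from 25.1 to 39.8 FPKM.

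Known targets of the factors that entered the test were higher. All 18 genes listed as XBP1 targets rose (median log2 fold change 1.04), and so did all 14 tested ATF6 targets (median 1.20), against 46.4% higher and a median of 0.07 among all tested genes; after TMM scaling 1 XBP1 target, SRPRB, was called lower. These lists share HERPUD1 and PDIA6, the ATF6 list contains XBP1 itself, and such genes also answer to other stress factors. EDEM1, which directs misfolded glycoproteins to degradation, rose from 5.27 to 36.1 FPKM (6.85-fold) and HERPUD1, a degradation complex component, from 5.67 to 36.0 FPKM (6.34-fold). The chaperone gene HYOU1 rose 3.67-fold. DERL3 was below the filter, at 0.335 and 1.40 FPKM.

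IRE1α can also cut other transcripts, which are then degraded. Of 6 such substrates reported in other cells, 3 passed the filter and all 3 were called higher (median log2 fold change 0.33), against 46.4% of all tested genes. HGSNAT rose 3.67-fold, from 1.45 to 5.33 FPKM. SPARC (2.61 to 3.56 FPKM) lost its call after TMM scaling and after quantile normalization, and BLOC1S1 (27.8 to 31.3 FPKM), the best known substrate, was called lower after TMM scaling (log2 fold change -0.08, limma adjusted p = 0.027). SCARA3, PDGFRB and COL6A1 were below the filter.

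**Figure D4:**
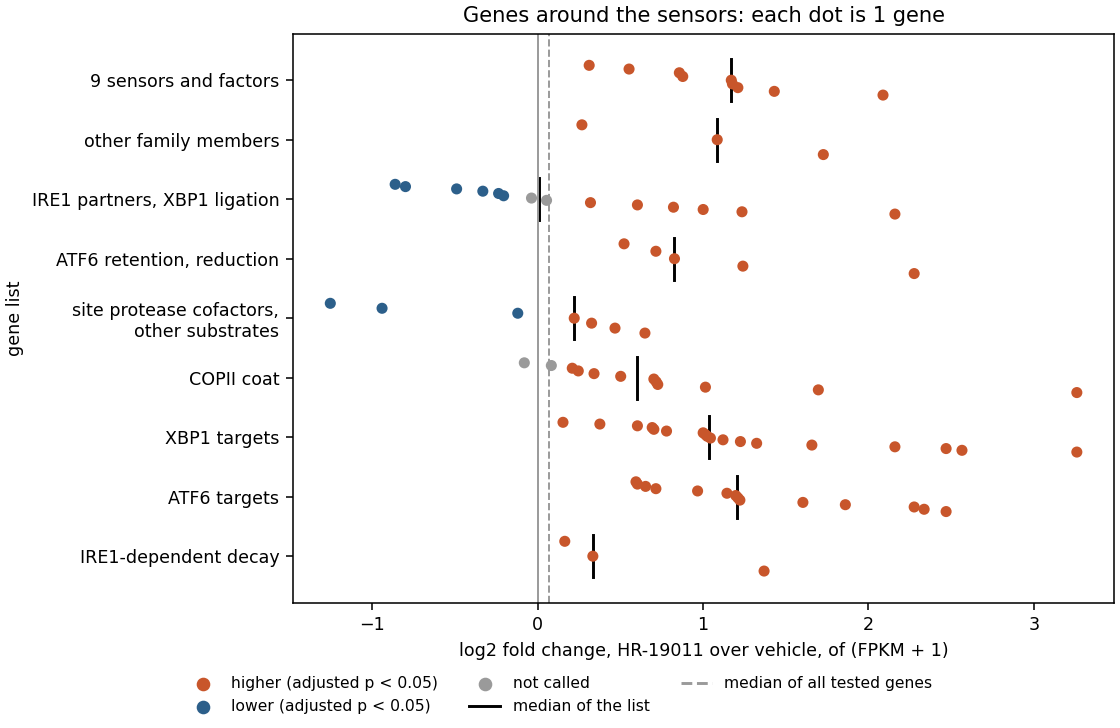
Log2 fold changes of the tested genes in each list, 1 dot per gene, coloured by call; black bars are list medians and the dashed line is the median of all tested genes (0.07). The 9 sensors and factors and both target lists lie to the right of 0, while the IRE1 partners and the site protease list spread to both sides.

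The ERSE letters of the XBP1 promoter are rare, present in 25 genes, of which 15 were tested. Of these 15, 13 were higher and none lower, with a median log2 fold change of 0.88, against 46.4% higher among all tested genes. They include, besides XBP1, the ATF6 targets HSPA5, HSP90B1, CALR, CANX, PDIA6 and CRELD2, so the target list and the motif are not independent. Of the others, FICD, which modifies BiP, went from 0.532 to 3.78 FPKM. It passed the filter only through its HR-19011 values and had to differ, yet it is counted among the 13 and in the median. The oxidase gene ERO1B went from 1.22 to 4.54 FPKM. ALG12 (2.72 to 3.02 FPKM) and ZNF17 (1.75 to 1.83 FPKM) did not pass the test. The CRE letters of CREB3L2 were in 372 tested genes, 157 of them higher and 153 lower (median 0.01). The other 3 motifs searched differed from the ERSE. ERSE-II was in 13 tested genes, 5 higher and 4 lower (median 0.06). TGACGTGG was in 111, with 79 higher and 23 lower (median 0.49). TGATGNAA was in 224, with 125 higher and 62 lower (median 0.21).

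**Figure D5:**
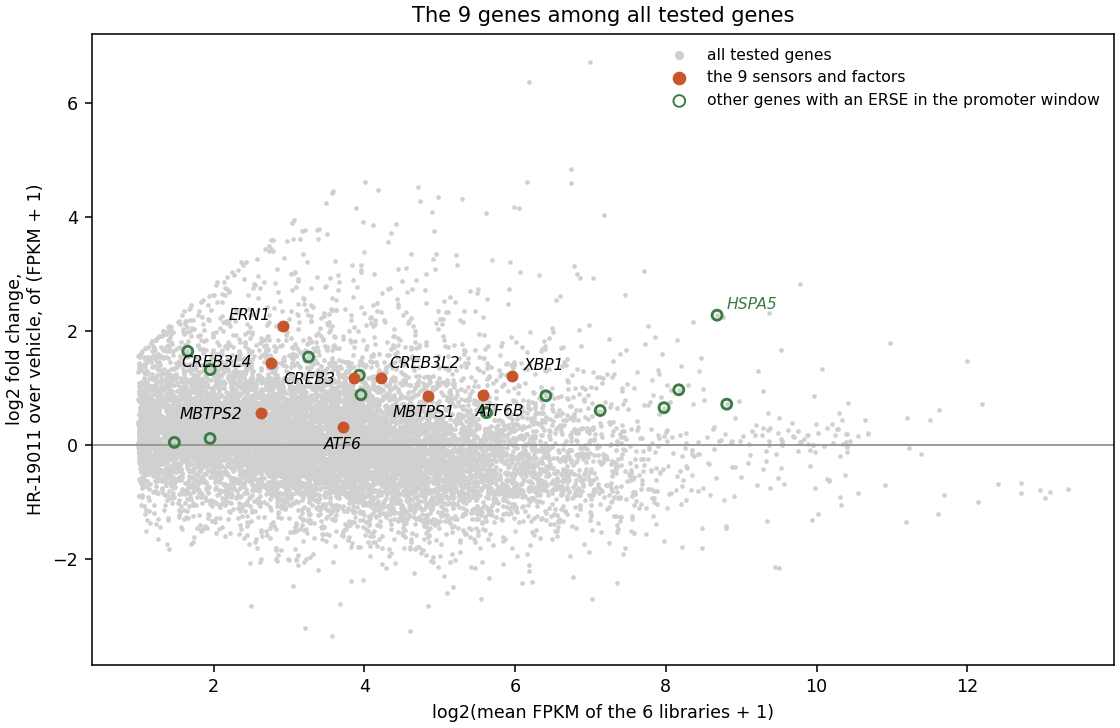
Log2 fold change against mean level, log2(mean FPKM + 1), of all 11856 tested genes (grey), with the 9 genes filled and other genes with an ERSE in their promoter window as open circles. The 9 genes lie above 0, and 2.30% of the grey points lie higher than ERN1, the highest of the 9 at 2.09.

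The genes whose centred profile over the 6 libraries lay nearest were found by Euclidean distance on log2(FPKM + 1), which rewards an equal size of change. For XBP1 they were TMF1, TMEM214 and LASP1 (distances 0.0269, 0.0301 and 0.0335). For ERN1 they were DUSP8, LOC105371453 and VAT1 (0.0740, 0.0975 and 0.101). For ATF6 they were PDLIM1, TTC14 and ENSA (0.0196, 0.0301 and 0.0330). DUSP8 went from 0.144 to 4.00 FPKM and passed the filter only through its HR-19011 values; its ratio of means is far above that of ERN1, and its likeness rests on the pseudocount. VAT1 went from 46.4 to 204 FPKM, far above the level of ERN1, so the likeness is in the change of log2(FPKM + 1) and not in level.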

How the data were processed

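RNA of 6 K562 libraries was measured by stranded mRNA sequencing. The deposited values are FPKM per gene, 1 file per library, which the authors scaled to transcript length and to library size, per the file headers. The submitters' processing notes list the GRCh38 build, StringTie 2.1.3b, HISAT2 2.1.0, HISAT, Trimmomatic 0.38, SAMtools 1.9, Bowtie2 and DESeq2 1.24.0, with no role stated. The division of reads shared by several genes is not described there. Because a 0 in such a file may be an estimate that failed, the text says "listed at 0". Whole multiples of 1 read were looked for among low values of single-transcript genes spanning up to 1500 bases; at best 28.6% to 31.9% per library lay within 0.1 of one, so reads were not recovered and no count model was used.

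Groups came from the sample titles. Genes averaging 1 FPKM or more were compared in limma 3.58.1 (R 4.3.3) on the log2(FPKM + 1) scale (group only, mean-variance trend, two-sided, Benjamini-Hochberg over 11856 genes, threshold 0.05), and the test was tried on simulated data. The exact two-sided permutation test of ratios was run on within-library log2 ratios of FPKM + 1. Log2 ratios in the text are of FPKM + 1 unless another pseudocount is named, while the other printed ratios are of FPKM. At most 0.0208% of values were identical between libraries of a group. The members and lists were chosen with earlier results of these data known. Named are all members, the other family genes, per list the 3 called genes of lowest p (1 or more in each direction) and the genes not called where 3 or fewer, and the 3 nearest profiles of XBP1, ERN1 and ATF6; RTCB, FAM98B, HBZ, LMO2, overlapping genes and genes with the ERSE were named after their values were seen. Positions and promoters are from RefSeq GRCh38.p14, matched by gene identifier (9 of 9), and the intron from GENCODE v29. The alternatives tried were a pseudocount of 0.1 or 5, no filter, a filter at a mean of 5 FPKM, scaling by TMM with 30% of log ratios and 5% of mean logs trimmed, TPM, quantile normalization, no trend, a block for the replicate number, leaving out each library, a threshold of 0.01, a test against 1.5-fold and protein-coding genes alone; the ratios under TMM, TPM and quantile normalization were added after seeing the data.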

Additional observations from a re-analysis of the deposited data

How the results depend on the processing

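The 9 genes were called higher under every alternative run except TMM scaling (8, without ATF6) and the test against 1.5-fold (7, without ATF6 and MBTPS2, adjusted p = 1 for both in limma). At a mean of 5 FPKM, ERN1, CREB3L4 and MBTPS2 passed the filter only through their HR-19011 values. Their vehicle means were 1.89, 2.66 and 4.01 FPKM, so their calls under that filter add no support. The adjusted p of ATF6 was at most 0.000221 under the other alternatives. A log2 fold change of at least 1 was reached by 5 of the 9, by 2 after TMM scaling and by 2 with a pseudocount of 5. Over all genes, 10009 were called, 9686 to 9822 with a library left out and 3716 against 1.5-fold. Higher genes made up 55.0% of calls on the deposited FPKM, 40.1% with TMM scaling, 46.3% with quantile normalization and 62.2% as TPM; the median of all genes moved by -0.22, -0.12 and 0.12 in these, and by -0.11 with a mean of at least 5 FPKM. Against 1.5-fold, 2 IRE1 partners were lower, 0 genes of the site protease list, 6 of the COPII coat and 1 decay substrate higher. After TMM scaling 2 genes of the site protease list were higher, 2 COPII genes lower, 1 XBP1 target lower, and 1 decay substrate higher and 1 lower. Quantile normalization left 1 gene of the site protease list higher and 1 COPII gene lower, a mean of at least 5 FPKM left 1 decay substrate to be called higher because fewer were tested, and leaving out a library gave 0 to 1 COPII genes lower. The cause of the other changes was not tested. The log2 ratio of CREB3L2 to CREB3 differed by 0.01 between groups, by -0.0135 with a pseudocount of 0.1, by -0.0039 as TPM (added after seeing the data), and by -0.0180 to 0.0345 with a library left out. With a pseudocount of 5, CREB3L2 to CREB3L4 differed by 0.0968 and CREB3 to CREB3L4 by 0.0419, against -0.25 and -0.26.

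With the replicate number as a block (replicate block) 9880 genes were called, and all 9 members were higher. Deviations of same-numbered libraries correlated at -0.0343, -0.00448 and -0.108. The labels give a number and do not say whether same-numbered libraries were handled together. These correlations cannot decide it, because each deviation is from a mean of only 3 libraries. Precision is limited by 3 libraries a group and an unknown depth.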
